A study of Glycine max with 6 samples.

Results

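Nitrate and peptide transporters are membrane proteins that move nitrate, small peptides and some plant hormones or defence compounds into cells, between organs and into storage. Here they are the genes whose deposited protein description names a nitrate transporter, a nitrate/peptide transporter, a peptide transporter or NRT1, with oligopeptide transporters left out. The rule found 88 of the 36827 genes listed in RNA-seq of leaves (trifoliolate) from 30 days old soybean, Glycine max. It uses description text only and no measured value. Libraries came from 2 groups of 3: GmRAV1-ox, for which the labels give the genotype GmRAV1, and DN50, which the labels call wild type. The suffix is not spelled out in the labels and is read here as overexpression; the promoter, the line or lines and the number of plants behind each library are not stated in the labels.

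Low-affinity nitrate transport in plants is carried by NRT1 proteins, which share a family with the peptide transporters (PTR) and use the proton gradient to move their substrate. High-affinity uptake, which works when nitrate is scarce, is carried by NRT2 proteins that need a small partner protein, NRT3, at the plasma membrane. In leaves, members of these families unload nitrate from the xylem, store it in the petiole and load it into the phloem, as known from Arabidopsis. Roles given below for numbered or Arabidopsis-named proteins are known from Arabidopsis, while the soybean genes carry those names through the deposited protein matches.

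By description, 30 of the 88 genes are NRT1-type nitrate transporters, 29 are peptide/nitrate transporters named after an Arabidopsis locus, 15 are PTR-type peptide transporters and 10 are At1g52190-like peptide transporters. A further 2 are high-affinity 2.5-like (NRT2) genes and 2 are 3.1-like (NRT3) partner genes. Coding lengths ran between 627 and 2232 bases, with a median of 1758. A count above 0 was found for 81, 80 and 81 of the 88 genes in replicates 1 to 3 of GmRAV1-ox, and for 76, 78 and 77 in replicates 1 to 3 of DN50. The filter on low counts kept 59 genes for testing and left 29 untested, of which 11 had fewer than 10 counts in all 6 libraries together. Deposited counts were whole numbers in every library for 52 genes. The others carry fractional counts, so their reads may have been shared out between near copies, and their single-gene values are uncertain to that extent.

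Levels are given as CPM per kb, which is the count scaled to library size (CPM, with TMM factors) and divided by the coding length in kilobases. Values listed for a group are those of replicates 1, 2 and 3 in that order. Library totals lay between 7208496 and 7684540 estimated counts. Across all genes, GmRAV1-ox replicate 3 correlated more closely with the DN50 libraries (r = 0.943, 0.939 and 0.918 on log2 CPM) than with GmRAV1-ox replicates 1 (0.908) and 2 (0.883). Those 2 replicates in turn correlated more closely with DN50 replicate 2 (0.936 and 0.898) than with GmRAV1-ox replicate 3. With DN50 replicates 1 and 3 they correlated less closely than with GmRAV1-ox replicate 3. None of the 3 tested RAV transcripts was called higher by edgeR in the libraries labelled GmRAV1-ox, with log2 fold changes of -0.26, -0.05 and -0.04 (-0.12, 0.1 and 0.12 without scaling factors), so each direction below rests on the labels. A further RAV-family gene, Glyma20g32730.1, fell below the count filter. Its levels were 1.5, 2.67 and 0.281 CPM per kb in the libraries labelled GmRAV1-ox, against 0.15, 0.553 and 0.385 in DN50, and without GmRAV1-ox replicate 3 it was called higher. Leaf blade markers (30 Rubisco small subunit and chlorophyll-binding genes, none at 0 in all libraries) summed to between 104970 and 145211 FPKM in GmRAV1-ox and between 105431 and 143731 FPKM in DN50. Seed markers summed to at most 3.41 FPKM in any library. Whether the replicates are separate plants is not stated, and p-values measure the spread between these libraries only.

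The comparison of GmRAV1-ox with DN50 asked which transporter transcripts differ when GmRAV1 is the stated genotype. Of the 59 tested genes, 4 were called lower in the libraries labelled GmRAV1-ox (6.78%, where 0.579% of all 26272 tested genes were called lower) and 0 were called higher (0.122% of all tested genes), by the quasi-likelihood test of edgeR at a Benjamini-Hochberg adjusted p under 0.05, with the adjustment made over every gene tested. The 4 genes were a high-affinity 2.5-like gene, a pair of At2g40460-like peptide/nitrate transporter genes and a 1.2-like nitrate transporter gene. At an unadjusted p under 0.05 the test gave 22 lower (background 10.7%) and 2 higher (background 10.6%). All 3 GmRAV1-ox libraries lay below all 3 DN50 libraries for 25 of the 59 genes (42.4%, where 13.1% of all tested genes did so). The opposite order held for 1 gene (1.69%, where 12.9% did so). Both counts were taken on TMM-scaled levels and depend on the scaling. In deposited FPKM the opposite order also held for other genes, among them Glyma08g15670.1 and Glyma19g41230.1. Glyma18g53710.1, which is among the 25, overlapped between the groups in FPKM. Shares in FPKM were not counted. The estimate was negative for 46 (78.0%, where 48.9% of all tested genes had a negative estimate), and its median was -0.62 on the log2 scale, against 0.01 over all tested genes. Without scaling factors the median of all tested genes moved to 0.2 and that of the transporters to -0.45, a distance of -0.65 in place of -0.63, and 41 estimates were then negative. An estimate of at least 2-fold lower was found for 18 genes and one of at least 2-fold higher for 2. The share of all tested genes at such folds was not counted, so these 2 counts have no background beside them. The call counts turned on single libraries. Without GmRAV1-ox replicate 1 or 2, or DN50 replicate 1 or 3, edgeR called 0 of the transporter genes and 0 of all genes tested. Without DN50 replicate 2 it called 2 lower (0.545% of all tested genes), and without GmRAV1-ox replicate 3 it called 23 lower and 3 higher. DESeq2 called 14 lower (3.96% of all tested genes), limma on log2(FPKM + 1) called 0 (0.246%), and none of the 3 tools called any transporter gene higher with all libraries. In whole leaves, fewer cells of a type that makes a transcript and less of that transcript per cell cannot be told apart.

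The filter bears on these counts. Of the 59 genes, 43 reached the filter's count level in all 6 libraries, and 3 reached it in every DN50 library and in no GmRAV1-ox library. Those 3, Glyma11g35890.1, Glyma08g39140.1 and Glyma17g00550.1, could pass only because they were high in DN50, and the first 2 of them are among the 4 called. Among 13 others, Glyma18g41270.1, Glyma01g25890.1 and Glyma18g49470.1 reached it in every DN50 library but not in most GmRAV1-ox libraries. They too needed DN50 to pass, whereas Glyma07g40250.1 fell short in most DN50 libraries. No gene reached the level in every GmRAV1-ox library and in no DN50 library. With no count filter, the median over the 88 genes was -0.31, against 0.04 over all genes in that fit. Estimates were then negative for 55 of the 88, so the share with a negative estimate was smaller than among the 59.

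**Figure D1:**
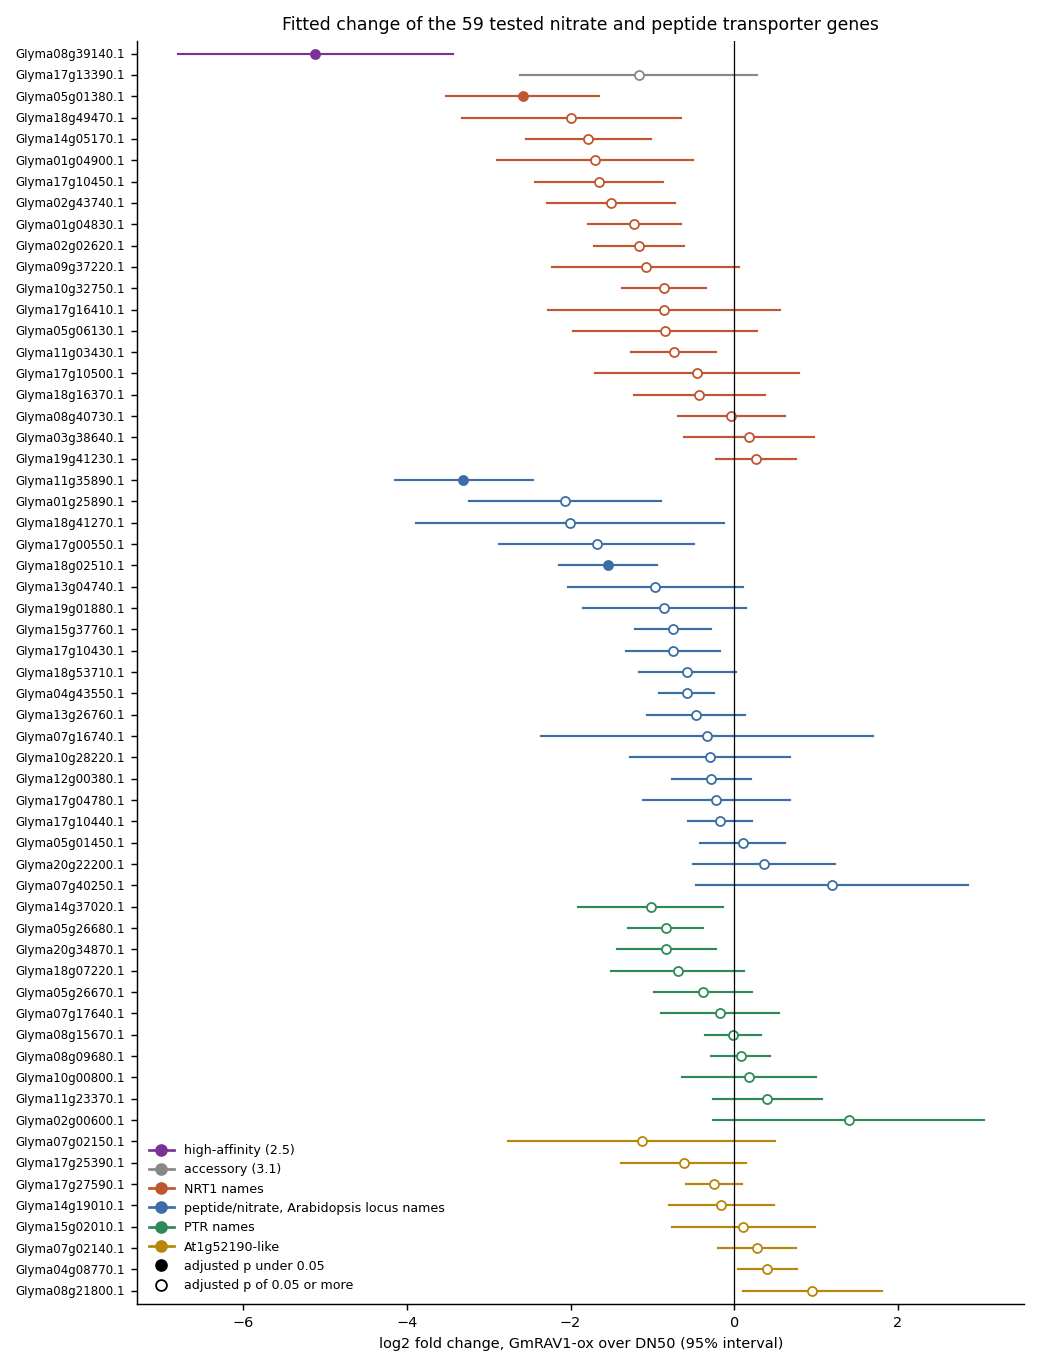
Fitted log2 fold change (GmRAV1-ox over DN50) of each of the 59 tested genes with its 95% interval, coloured by description class; filled points passed an adjusted p of 0.05 and open points did not. The 4 filled points lie left of 0, and most open points of the NRT1 class lie left of 0 too, while PTR and At1g52190-like genes lie on both sides.

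High-affinity transport was represented by low-level transcripts. NRT2.5 of Arabidopsis is a nitrate carrier of nitrogen-starved roots that is also found in the minor veins of leaves. Glyma08g39140.1, described as high affinity nitrate transporter 2.5-like, stood at 0.168, 0 and 0.0945 CPM per kb in the libraries labelled GmRAV1-ox and at 1.92, 2.89 and 5.18 CPM per kb in DN50. It was at or near 0 in every GmRAV1-ox library and the groups did not overlap. The levels rest on 3 counts in GmRAV1-ox and 110 counts in DN50, a ratio of DN50 over GmRAV1-ox of 40.1 (95% counting interval 13.4 to 197, which leaves out the spread between libraries). The gene was called lower by edgeR (adjusted p = 0.0363), with a fitted log2 fold change of -5.12 that depends on the prior count. The other 2.5-like gene, Glyma18g20510.1, fell under the filter, with 0.167, 0 and 0.0942 CPM per kb in GmRAV1-ox against 0.301, 0.65 and 2.15 CPM per kb in DN50. Its 3 counts in GmRAV1-ox and 35 in DN50 give a ratio of DN50 over GmRAV1-ox of 12.8 (4.02 to 64.8), and 25 of the 35 came from DN50 replicate 3. Both genes had whole counts in every library.

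NRT3.1 of Arabidopsis is the partner that NRT2 proteins need to reach the plasma membrane. The 3.1-like gene Glyma17g13390.1 stood at 2.46, 1.14 and 5.3 CPM per kb in the libraries labelled GmRAV1-ox and at 4.66, 3.63 and 11.4 CPM per kb in DN50. Replicate 3 was the highest of its group in both, and the groups overlapped. Its log2 fold change of -1.17 (95% interval -2.62 to 0.28) did not pass (adjusted p = 0.317 by edgeR). The second 3.1-like gene, Glyma05g02690.1, was too low for the filter. Its levels were 2.25, 2.1 and 2.07 CPM per kb in GmRAV1-ox against 1.96, 1.82 and 1.68 CPM per kb in DN50, from 8 to 11 counts in a library.

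NRT1-named genes include the carriers that move most nitrate at ordinary soil supply. Their summed level was 129, 93.8 and 127 CPM per kb in the libraries labelled GmRAV1-ox, against 258, 183 and 244 CPM per kb in DN50, with no overlap. A large part of this sum is Glyma10g32750.1, at 51.7, 36.7 and 50.8 CPM per kb in GmRAV1-ox and 83.7, 68.9 and 100 in DN50. That gene is NRT1-named by description, but its deposited terms include dipeptide transport and not nitrate transmembrane transport. Of the 18 tested NRT1-named genes, 1 was called lower (0.579% of all tested genes were) and 0 higher (0.122% were). Estimates were negative for 16 (48.9% of all tested genes), with a median log2 fold change of -0.97 and a range of -2.58 to 0.27. In 10 of the 18 all GmRAV1-ox libraries lay below all DN50 libraries, as in 13.1% of all tested genes.

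NRT1.1 is a dual-affinity nitrate transporter that also senses nitrate. Glyma11g03430.1, described as nitrate transporter 1.1, stood at 5.03, 4.28 and 5.82 CPM per kb in the libraries labelled GmRAV1-ox and at 10.4, 6.7 and 8.24 CPM per kb in DN50. The groups did not overlap, but its log2 fold change of -0.74 (-1.26 to -0.23) did not pass (adjusted p = 0.136 by edgeR).

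NRT1.2 is a low-affinity nitrate transporter that also imports abscisic acid. Among the 10 genes with this description 8 were tested, and they did not move together: 6 estimates were negative and 2 positive. Glyma05g01380.1 was called lower, and it does not carry the deposited term for abscisic acid transport. It stood at 1.67, 1.62 and 2.12 CPM per kb in the libraries labelled GmRAV1-ox, against 17.7, 8.12 and 6.71 CPM per kb in DN50. The 3 GmRAV1-ox values lay close together, whereas DN50 replicate 1 stood well above the other DN50 libraries. Its level was 6.0-fold lower (95% interval 3.14 to 11.5; log2 fold change -2.58, SE 0.4, adjusted p = 0.045 by edgeR), and its counts were whole. Glyma02g02620.1, the tested 1.2-like gene with the highest level, stood at 4.49, 4.05 and 6.54 CPM per kb in GmRAV1-ox and at 12.5, 12.2 and 9.01 CPM per kb in DN50. Its groups did not overlap, at a log2 fold change of -1.17 (-1.72 to -0.62) that missed the threshold (adjusted p = 0.0754). Glyma03g38640.1 and Glyma19g41230.1, named after their values were seen, had log2 fold changes of 0.18 (-0.62 to 0.97) and 0.27 (-0.22 to 0.75). The groups of both overlapped in CPM per kb.

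NRT1.3 is expressed in leaves of Arabidopsis. The summed level of the pair with this description was 22.3, 14.4 and 23.5 CPM per kb in the libraries labelled GmRAV1-ox against 84.2, 37.3 and 62.6 CPM per kb in DN50, without overlap. Glyma02g43740.1, described as nitrate transporter 1.3, stood at 13.5, 10.1 and 15.7 CPM per kb in GmRAV1-ox and at 52.7, 21.2 and 37.9 CPM per kb in DN50. Its log2 fold change was -1.51 (-2.29 to -0.73, adjusted p = 0.093 by edgeR). Glyma14g05170.1, described as 1.3-like and named after its values were seen, stood at 8.87, 4.34 and 7.78 CPM per kb in GmRAV1-ox and at 31.5, 16.1 and 24.7 CPM per kb in DN50. Its log2 fold change was -1.79 (-2.55 to -1.02, adjusted p = 0.064). Neither passed the threshold, although no GmRAV1-ox library reached the lowest DN50 library for either gene. Both have fractional counts, so the split between them is uncertain, which does not touch their sum.

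NRT1.4 stores nitrate in the petiole, NRT1.5 loads it into the root xylem and NRT1.7 loads it into the phloem of older leaves. Neither 1.4-like gene was tested, and no library held more than 0.35 CPM per kb of either. Of 8 genes described as 1.5-like, 4 were tested, with log2 fold changes between -1.99 and -0.85 and none called. Glyma17g16410.1, the highest of the 4, stood at 1.34, 0.198 and 1.35 CPM per kb in the libraries labelled GmRAV1-ox and at 2.37, 1.18 and 1.67 CPM per kb in DN50, with overlap (log2 fold change -0.86, -2.28 to 0.56). Of 4 genes described as 1.7-like, 1 was tested. That gene, Glyma01g04830.1, stood at 3.03, 3.92 and 4.57 CPM per kb in GmRAV1-ox and at 7.35, 11.5 and 7.93 CPM per kb in DN50. No GmRAV1-ox value reached the DN50 range, at a log2 fold change of -1.22 (-1.79 to -0.65) that missed the threshold (adjusted p = 0.0752 by edgeR).

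The most abundant of the 88 genes per length was Glyma10g32750.1, described as NRT1-3 protein. It stood at 51.7, 36.7 and 50.8 CPM per kb in the libraries labelled GmRAV1-ox and at 83.7, 68.9 and 100 CPM per kb in DN50. The groups did not overlap and the gene was 1.82-fold lower (1.27 to 2.59), yet it did not pass (log2 fold change -0.86, adjusted p = 0.111 by edgeR). Glyma17g10450.1, described as nitrate transporter NRT1-2 and named after its values were seen, stood at 6.62, 2.69 and 7.13 CPM per kb in GmRAV1-ox and at 16.3, 15.3 and 19.7 CPM per kb in DN50. Its log2 fold change was -1.65 (-2.43 to -0.87, adjusted p = 0.0762).

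**Figure D2:**
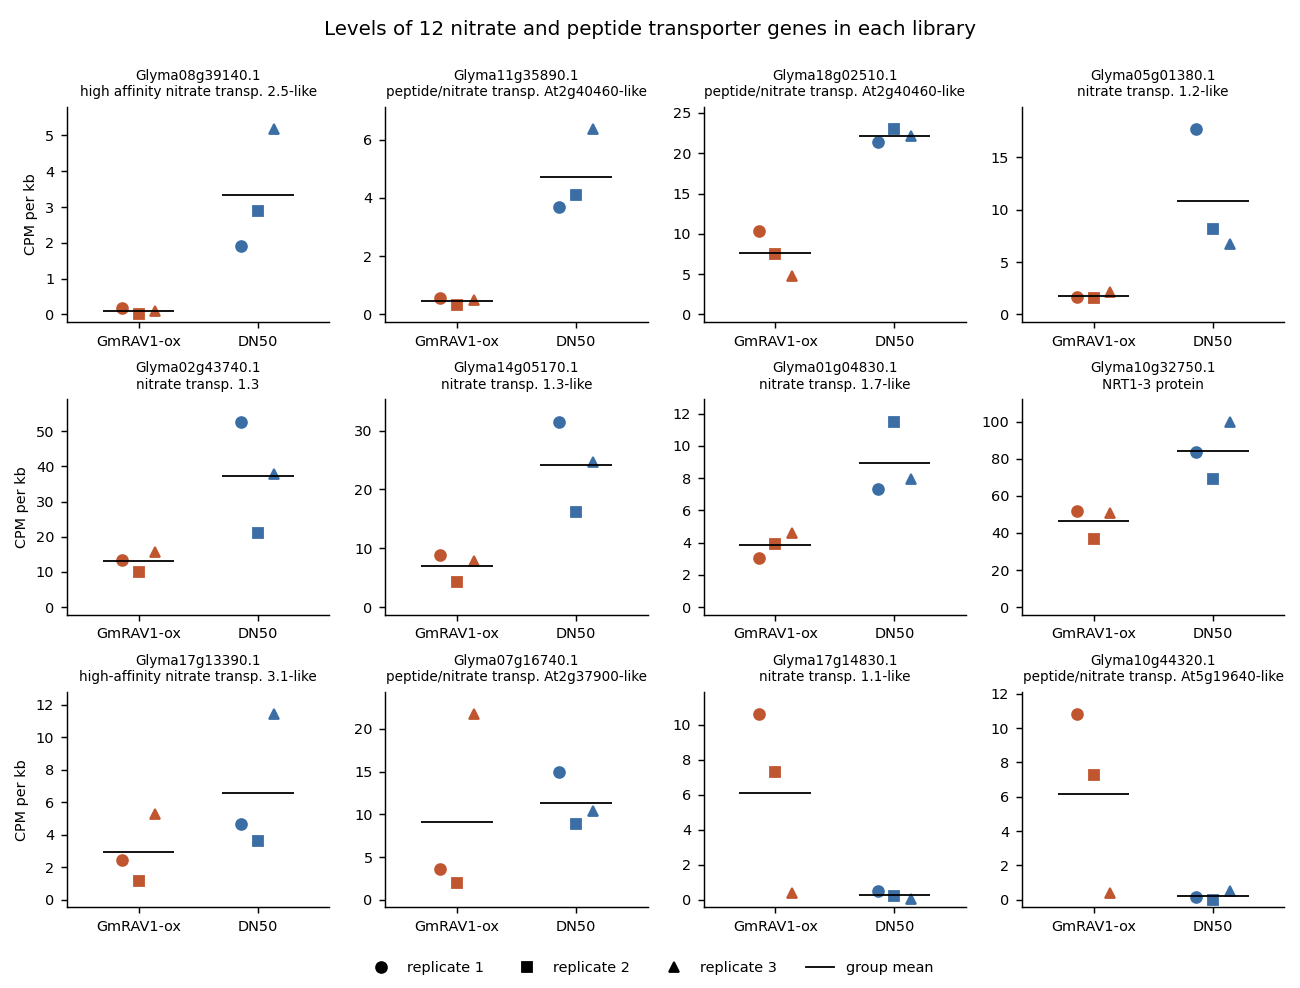
Levels in CPM per kb of 12 genes in each library, with GmRAV1-ox left and DN50 right, a symbol per replicate and a line at the group mean; each panel has its own axis from 0. The first 8 panels show genes whose groups do not overlap, Glyma17g13390.1 and Glyma07g16740.1 overlap, and Glyma17g14830.1 and Glyma10g44320.1 stand between 7.29 and 10.8 CPM per kb in GmRAV1-ox replicates 1 and 2 and near 0 in the other libraries.

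Among peptide/nitrate transporter genes named after Arabidopsis loci, 20 of 29 were tested. Of these, 2 were called lower (0.579% of all tested genes were) and 0 higher (0.122% were). Estimates were negative for 17 (48.9% of all tested genes), with a median log2 fold change of -0.58. Both called genes carry the description At2g40460-like. Glyma11g35890.1 stood at 0.582, 0.339 and 0.491 CPM per kb in the libraries labelled GmRAV1-ox and at 3.67, 4.11 and 6.36 CPM per kb in DN50, 9.90-fold lower (5.5 to 17.8; log2 fold change -3.31, SE 0.37, adjusted p = 0.032 by edgeR). Glyma18g02510.1 stood at 10.4, 7.55 and 4.81 CPM per kb in GmRAV1-ox and at 21.4, 23.0 and 22.1 CPM per kb in DN50, 2.91-fold lower (1.92 to 4.39; log2 fold change -1.54, SE 0.26, adjusted p = 0.0487). In this gene GmRAV1-ox replicate 3 was the lowest library, while the DN50 libraries lay close together. Both have fractional counts. Summed over the 4 genes with the description, which does not depend on how reads were split, the level was 11.5, 8.17 and 5.89 CPM per kb in GmRAV1-ox against 25.7, 28.4 and 28.8 CPM per kb in DN50.

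Other genes of this class ranged widely. Glyma18g53710.1, described as At5g13400-like and ranked 6 by level among the 88 genes, stood at 21.1, 11.4 and 19.7 CPM per kb in the libraries labelled GmRAV1-ox against 21.2, 25.6 and 31.0 CPM per kb in DN50. GmRAV1-ox replicate 1 lay just below the lowest DN50 library, and the gene was not called (log2 fold change -0.58, adjusted p = 0.244 by edgeR). In deposited FPKM its groups overlapped, at 23.16, 13.57 and 19.37 in GmRAV1-ox and 18.41, 24.99 and 32.24 in DN50. Of 3 tested At2g37900-like genes, Glyma01g25890.1 had a log2 fold change of -2.07 (-3.24 to -0.9, adjusted p = 0.104) and Glyma18g41270.1 one of -2.01 (-3.89 to -0.13, adjusted p = 0.214). The remaining gene, Glyma07g16740.1, stood at 3.6, 1.95 and 21.7 CPM per kb in GmRAV1-ox and at 14.9, 8.86 and 10.4 CPM per kb in DN50. It was named after its values were seen, because GmRAV1-ox replicates 1 and 2 lay below all DN50 libraries and replicate 3 above them all. The highest estimate of the class belonged to Glyma07g40250.1, At1g59740-like, at 1.88, 1.26 and 0.593 CPM per kb in GmRAV1-ox against 0.0903, 0.417 and 1.08 CPM per kb in DN50, with overlap (log2 fold change 1.19, -0.47 to 2.85).

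At5g62680 is GTR2, a glucosinolate importer of Arabidopsis. The 3 genes with this description summed to 21.1, 17 and 20 CPM per kb in the libraries labelled GmRAV1-ox and to 19.5, 23.3 and 19.3 CPM per kb in DN50, with overlap and with log2 fold changes of -0.75, -0.18 and 0.1.

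PTR1 and PTR2 import dipeptides, and PTR3 is induced by wounding in Arabidopsis. Of 15 PTR genes 11 were tested and 0 were called in either direction by edgeR. At an unadjusted p under 0.05 the counts were 3 lower (10.7% of all tested genes) and 0 higher (10.6%). Their summed level was 156, 117 and 173 CPM per kb in the libraries labelled GmRAV1-ox against 204, 177 and 237 CPM per kb in DN50. The median log2 fold change was -0.17, with 7 negative and 4 positive estimates, and it was 0.01 without scaling factors. The groups did not overlap in the sum.

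The genes ranked 2 and 3 by level among the 88 belong here. Glyma20g34870.1, PTR3-A-like, stood at 37.7, 21.8 and 34.5 CPM per kb in the libraries labelled GmRAV1-ox and at 58.8, 42.2 and 66.0 CPM per kb in DN50, without overlap (log2 fold change -0.83, -1.43 to -0.23, adjusted p = 0.143 by edgeR). Glyma14g37020.1, PTR1-like, stood at 19.9, 13.0 and 33.9 CPM per kb in GmRAV1-ox and at 44.2, 31.2 and 60.3 CPM per kb in DN50, where GmRAV1-ox replicate 3 lay above DN50 replicate 2 (log2 fold change -1.02, -1.91 to -0.14, adjusted p = 0.19). Neither was called.

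Glyma05g26670.1, PTR2-like, stood at 23.8, 19.5 and 39.7 CPM per kb in the libraries labelled GmRAV1-ox and at 37.8, 36.5 and 33.9 CPM per kb in DN50. The DN50 libraries agreed closely, and GmRAV1-ox replicate 3 alone lay above them (log2 fold change -0.38, -0.98 to 0.22). Another PTR2-like gene, Glyma08g15670.1, named after its values were seen, stood at 10.8, 10.4 and 11.9 CPM per kb in GmRAV1-ox and at 11.6, 10.8 and 11 CPM per kb in DN50. Its log2 fold change of -0.02 (-0.36 to 0.32) has one of the narrowest intervals among the PTR genes.

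A further PTR3-A-like gene, Glyma02g00600.1, had the highest estimate of all 59 tested genes, 1.40 on the log2 scale (-0.26 to 3.05, adjusted p = 0.297 by edgeR). It stood at 13.7, 8.25 and 3.17 CPM per kb in GmRAV1-ox and at 0.846, 3.21 and 5.4 CPM per kb in DN50, with overlap. Glyma11g23370.1, PTR1-like, stood at 3.88, 3.41 and 4.12 CPM per kb in GmRAV1-ox against 1.88, 3.72 and 2.99 CPM per kb in DN50 (log2 fold change 0.40, -0.26 to 1.07).

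At1g52190 of Arabidopsis is NRT1.11, which moves nitrate between xylem and phloem in the large veins of leaves. The summed level of this class was 65.1, 58.0 and 52.3 CPM per kb in the libraries labelled GmRAV1-ox and 53.2, 59.3 and 57.1 CPM per kb in DN50, with overlap. Of 10 genes 8 were tested, 4 with a negative and 4 with a positive estimate and a median of -0.02 (0.17 without scaling factors). By edgeR 0 were called. At an unadjusted p under 0.05, 2 were higher (10.6% of all tested genes) and 0 lower (10.7%). The difference between the classes was not tested.

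Those 2 genes were Glyma04g08770.1 and Glyma08g21800.1. On TMM-scaled levels, Glyma04g08770.1 was the 1 tested gene of the 59 whose GmRAV1-ox libraries all lay above all DN50 libraries. It stood at 17.6, 15.7 and 15.3 CPM per kb in GmRAV1-ox and at 12.1, 13.7 and 11 CPM per kb in DN50, 1.32-fold higher (1.03 to 1.7), and did not pass (log2 fold change 0.40, adjusted p = 0.2). Glyma08g21800.1 stood at 5.67, 6.44 and 3.85 CPM per kb in GmRAV1-ox against 2.36, 4.27 and 1.65 CPM per kb in DN50 (log2 fold change 0.95, 0.1 to 1.8, adjusted p = 0.2). The highest gene of the class, Glyma17g27590.1, named after its values were seen, ran the other way at 18.4, 19.1 and 17 CPM per kb in GmRAV1-ox and 20.7, 20.4 and 23.9 CPM per kb in DN50 (log2 fold change -0.25, -0.59 to 0.09).

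**Figure D3:**
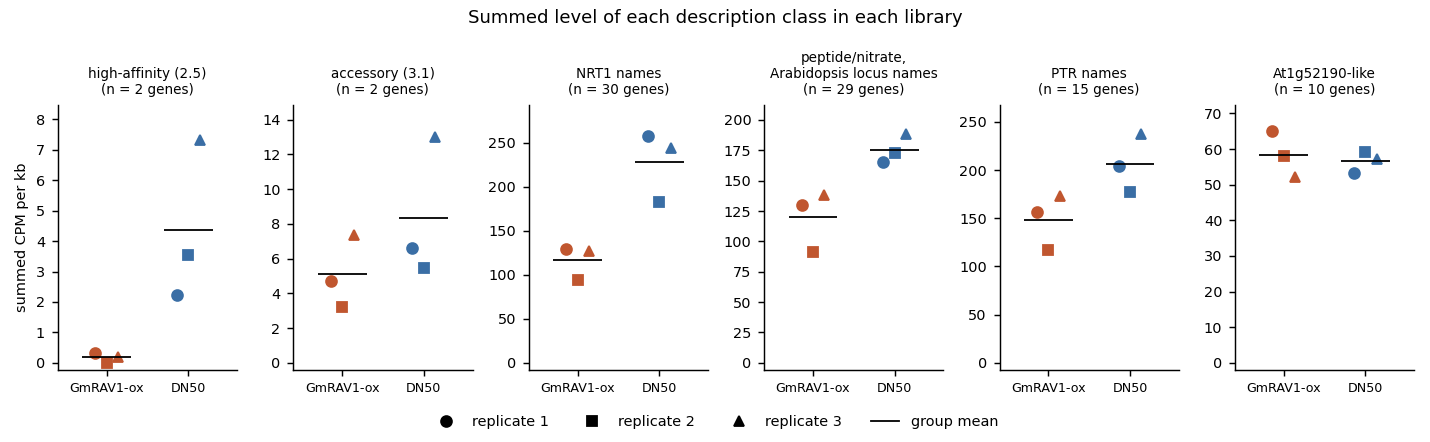
Summed level in CPM per kb of all genes of each description class in each library, tested or not, with GmRAV1-ox left and DN50 right, a symbol per replicate and a line at the group mean. NRT1-named, Arabidopsis-locus-named, PTR and 2.5-like sums do not overlap between groups and are lower in GmRAV1-ox, while the 3.1-like and At1g52190-like sums overlap.

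Over all 88 genes the summed level was 485, 363 and 498 CPM per kb in the libraries labelled GmRAV1-ox against 690, 601 and 746 CPM per kb in DN50, without overlap. The 6 highest genes, described above, held 39.2% of the summed level over all libraries. Within each library, the median deviation of the 59 tested genes from the DN50 mean was -0.54, -0.98 and -0.36 on the log2 scale in GmRAV1-ox and -0.05, -0.09 and 0.11 in DN50, where all tested genes had medians between 0.0 and 0.02. In GmRAV1-ox 42, 49 and 40 of the 59 genes lay below the DN50 mean, against 34, 37 and 19 in DN50. GmRAV1-ox replicate 3 thus had the smallest deviation of its group, though outside the DN50 range.

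**Figure D4:**
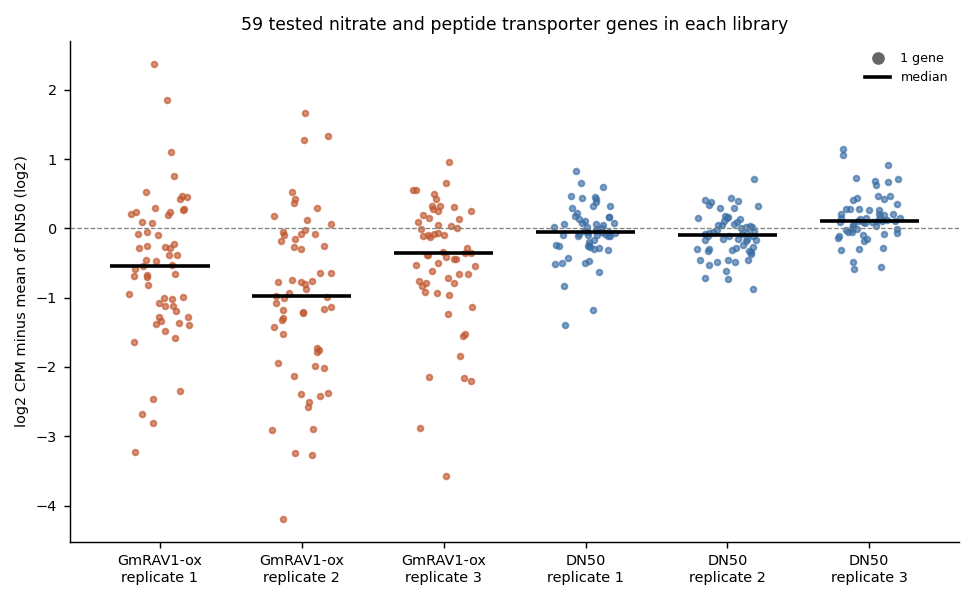
Deviation of each of the 59 tested genes from its DN50 mean (log2 CPM) in each library, 1 point per gene with a bar at the median. Medians are -0.54, -0.98 and -0.36 in GmRAV1-ox and -0.05, -0.09 and 0.11 in DN50; the DN50 points are also centred on 0 because the mean is theirs.

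GmRAV1-ox replicate 3 decided some genes. In 36 of the 59, GmRAV1-ox replicates 1 and 2 both lay below all DN50 libraries (61.0%, where 26.1% of all tested genes did so). Replicate 3 did so as well in 25 of them (69.4%, where it did in 50.3% of such genes overall), lay within the DN50 range in 8 and above it in 3. Without that library edgeR called 23 genes lower (9.66% of all genes tested in that fit were called lower) and 3 higher (8.62% were called higher), out of 67 tested. The 4 genes called with all libraries were among these 26. Those called lower then included Glyma10g32750.1 (log2 fold change -0.95, adjusted p = 0.0287), Glyma02g43740.1 (-1.68, adjusted p = 0.0205), Glyma14g05170.1 (-1.89, adjusted p = 0.0144) and Glyma07g16740.1 (-2.05, adjusted p = 0.00591).

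The 3 called higher without replicate 3 had not passed the filter with all libraries. They were high in GmRAV1-ox replicates 1 and 2 and near 0 elsewhere, and are named after their values were seen. Glyma17g14830.1, 1.1-like, stood at 10.6, 7.3 and 0.404 CPM per kb in the libraries labelled GmRAV1-ox and at 0.517, 0.239 and 0.0739 CPM per kb in DN50. Glyma10g44320.1, At5g19640-like, stood at 10.8, 7.29 and 0.404 CPM per kb in GmRAV1-ox and at 0.172, 0 and 0.516 CPM per kb in DN50. For both genes replicate 3 held 5 counts, within the DN50 range of level for each gene, while replicates 1 and 2 held between 109 and 151. Glyma02g02680.1, 1.7-like, stood at 1.05, 1.24 and 0.0786 CPM per kb in GmRAV1-ox and at 0, 0.155 and 0 CPM per kb in DN50. With all libraries and no count filter their adjusted p by edgeR was 0.187, 0.2 and 0.167.

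The senescence list also stood apart between the groups. It is made up mostly of senescence-associated carboxylesterase 101-like genes, and its nodulin-named gene Glyma07g33090.1 is on the root and nodule list too. Whether its sum marks senescence in these leaves was not tested. The 12 genes of this list, none at 0 in all libraries, summed to 111, 83.8 and 124 FPKM in the libraries labelled GmRAV1-ox and to 181, 181 and 273 FPKM in DN50, without overlap. Flower and pollen markers (22 genes with the word pollen in their description, none at 0 in all libraries) summed to 187, 206 and 119 FPKM in GmRAV1-ox against 77.6, 121 and 97.1 FPKM in DN50. They were highest in GmRAV1-ox replicates 1 and 2, the libraries in which Glyma17g14830.1 and Glyma10g44320.1 were high, while replicate 3 lay within the DN50 range. Many of these genes carry SF21 or SF3 names, and whether the list marks floral tissue in these leaves was not tested. Vascular markers (14 genes) overlapped, at 51.1, 37.1 and 32.8 FPKM in GmRAV1-ox against 34.1, 35.1 and 48.3 FPKM in DN50. So did the root and nodule list (27 genes, which also takes in nodulin-named genes of other tissues), at 1849, 1470 and 2102 FPKM in GmRAV1-ox against 2163, 2206 and 1485 FPKM in DN50. The part of any of these in the transporter levels was not tested.

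Deposited gene ontology terms cut across the descriptions. The term for nitrate transmembrane transport was carried by 16 genes, 10 of them tested and 9 with a negative estimate. The term for abscisic acid transport was carried by 5, with 4 tested, log2 fold changes between -1.7 and -0.04, and a summed level of 9.49, 8.44 and 12.8 CPM per kb in the libraries labelled GmRAV1-ox against 20.3, 20.9 and 16.9 CPM per kb in DN50. The term for dipeptide transport was carried by 9, with 7 tested and 4 negative. Of 18 genes with the term for response to nematode, 15 were tested and 2 called lower (0.579% of all tested genes were). These are the At2g40460-like pair reported above, of which Glyma11g35890.1 passed the filter only through DN50. None of the genes under the other 3 terms was called.

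Several of the genes sit next to each other in the Glycine_max_v4.0 gene order, and values of some adjacent copies are given here. Glyma17g10430.1, Glyma17g10440.1 and Glyma17g10450.1 follow each other with log2 fold changes of -0.75, -0.18 and -1.65. The adjacent PTR2-like pair Glyma05g26670.1 and Glyma05g26680.1 had -0.38 (-0.98 to 0.22) and -0.84 (-1.3 to -0.38), with overlapping intervals. In the adjacent 1.5-like pair, Glyma18g49470.1 stood at 0.204, 0.38 and 0.765 CPM per kb in the libraries labelled GmRAV1-ox and at 2.28, 0.829 and 2.24 CPM per kb in DN50. Its untested neighbour Glyma18g49460.1 stood at 1.67, 0.88 and 0.409 CPM per kb in GmRAV1-ox and at 0.523, 0.322 and 0.373 CPM per kb in DN50. These genes were named after their values were seen, and differences between neighbours were not tested.

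Nitrate that enters a leaf cell is reduced by nitrate and nitrite reductase and assimilated through glutamine synthetase and glutamate synthase. The patterns of 7 lists of other genes of nitrate use took in 141 genes, of which 103 were tested. Leaving out 14 unrelated proteins that the patterns also caught, 127 genes were listed and 93 tested, with a median log2 fold change of -0.23 (-0.19 with them). By edgeR 0 were called in either direction, with or without the unrelated proteins. At an unadjusted p under 0.05, 11 of the 93 were higher (11.8%, where 10.6% of all tested genes were) and 22 lower (23.7%, where 10.7% were). DESeq2 called 7 of the 93 higher (7.53%, where 2.5% of all tested genes were) and 11 lower (11.8%, where 3.96% were), and limma on FPKM called 0 either way. Without GmRAV1-ox replicate 3 edgeR called 7 of 96 higher (7.29%, where 8.62% of all genes in that fit were) and 24 lower (25.0%, where 9.66% were). Without DN50 replicate 2 it called 0 higher and 2 of 98 lower (2.04%, where 0.545% were). The list of reduction genes holds nitrate and nitrite reductases together with molybdopterin and molybdenum cofactor genes. Its median was 0.93, the value of the CNX1-like gene Glyma02g44040.1, with 5 of 13 higher and 1 lower at an unadjusted p under 0.05 by edgeR. The 1 lower gene, Glyma09g00460.1 (log2 fold change -0.51), and 1 of the 5 higher, Glyma17g14140.1 (1.06), are molybdenum cofactor sulfurase-like and not reductases. The nitrate reductase gene with the highest level, Glyma06g11430.1, stood at 174, 158 and 805 CPM per kb in the libraries labelled GmRAV1-ox and at 530, 270 and 542 CPM per kb in DN50, with overlap. Another, Glyma13g02510.1, named after its values were seen, stood at 118, 193 and 496 CPM per kb in GmRAV1-ox and at 98.5, 40.7 and 69.4 CPM per kb in DN50, without overlap (log2 fold change 1.95, adjusted p = 0.138).

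Ammonium transporters had a median of -1.21 over 5 tested genes, 3 of them lower at an unadjusted p under 0.05. Glyma10g31080.1, an AMT1-type transporter and the highest of the list, stood at 13.5, 10.9 and 7.8 CPM per kb in the libraries labelled GmRAV1-ox and at 49.2, 28.8 and 82.2 CPM per kb in DN50. Its groups did not overlap, at a log2 fold change of -2.31 that missed the threshold (adjusted p = 0.0602 by edgeR). Plasma membrane proton pumps, which supply the gradient that NRT1 and PTR proteins use, had a median of -0.61 over 9 tested genes (-0.41 without scaling factors, -0.19 by limma on log2(FPKM + 1)). The highest, Glyma06g07990.1, stood at 46.5, 22.5 and 54.4 CPM per kb in GmRAV1-ox and at 97.1, 79.5 and 88.2 CPM per kb in DN50 (log2 fold change -1.10, adjusted p = 0.127).

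Ammonium assimilation had a median of 0.12 over 28 tested genes, and of 0.03 (0.24 without scaling factors) over 23 once 5 folylpolyglutamate synthases that the pattern also took in were left out. Its highest gene, the glutamine synthetase Glyma13g28180.2, stood at 1850, 1460 and 2010 CPM per kb in the libraries labelled GmRAV1-ox and at 2580, 2050 and 1440 CPM per kb in DN50. Chloride and S-type anion channels had a median of -0.12 over 13 (0.05 without scaling factors), with the SLAH3-like gene Glyma16g29020.1 at 44.0, 48.1 and 30.5 CPM per kb in GmRAV1-ox and 59.1, 48.7 and 48.0 CPM per kb in DN50. Oligopeptide transporters had a median of -0.32 over 10 (-0.17 without scaling factors). Among them Glyma20g16480.1, oligopeptide transporter 7, stood at 25.3, 18 and 25.8 CPM per kb in GmRAV1-ox and at 42.8, 43.8 and 57.4 CPM per kb in DN50 (log2 fold change -1.06, adjusted p = 0.0733 by edgeR). Nitrate regulators (NLP, LOB domain, BTB/POZ and TAZ, TCP20 and TGA names) had a median of -0.47 over 25, and of -0.45 (-0.28 without scaling factors) over 20 after 9 unrelated proteins such as stellacyanin, caught by the pattern NIN-like, were left out. Of these, the LOB domain-containing protein 38-like gene Glyma11g05280.1 had the highest level, at 25.9, 46.3 and 59.1 CPM per kb in GmRAV1-ox and 35.8, 27.5 and 13.1 CPM per kb in DN50, with overlap (log2 fold change 0.78, -0.2 to 1.76).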

How the data were processed

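RNA-seq of leaves from 6 libraries was used. The authors deposited, per the file headers, an expected count (an estimated count of reads per gene), an FPKM value and a coding length for each gene. Per the submitters' processing notes, the tools were TopHat and Cufflinks; their versions, the build and the annotation are not given in the sources used. All lengths are multiples of 3, and between 29.6% and 30.5% of counts were not whole. Genes missing from a library's table were taken as 0.

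Counts were rounded and tested in R 4.3.3 with edgeR 4.0.16 (filterByExpr with a minimum count of 10, TMM factors from 0.849 to 1.17, robust quasi-likelihood F test, 2-sided, Benjamini-Hochberg adjustment over 26272 genes, threshold 0.05). Intervals are 95% intervals from the log2 fold change and its standard error. Levels are TMM-scaled CPM per kilobase, while marker sums use the FPKM values as the authors deposited them. The fit was tested on simulated data. Alternatives were DESeq2 1.42.0, limma 3.58.1 on log2(FPKM + 1) and log2(FPKM + 0.1), other scalings and filters, a replicate block and each library left out.

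The transporter genes and the lists were chosen with earlier results of these data known. Genes were named by rule: those called, the 6 highest by mean FPKM, all high-affinity genes, the highest tested gene of each numbered description and the 5 highest and 5 lowest log2 fold changes among tested genes whose higher group averaged 1 FPKM or more. Of other pathway genes, the highest of each list was named. Protein identity between copies, and protein and promoter features, were not analysed here. Of the 88 genes, 82 matched an entry of the Glycine_max_v4.0 gene table, 10 of them sharing an entry, which served for neighbours only.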

Additional observations from a re-analysis of the deposited data

How the results depend on the processing

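With all 6 libraries the transporter genes called lower numbered 4; the count was 2 with a mean FPKM of at least 1 as the filter, 14 by DESeq2, 0 by limma at either pseudocount and between 0 and 23 when a library was left out. With the replicate number as a block it was 13, all 4 original calls among them; over all tested genes the block raised the share called lower to 3.57%, against 0.579%, and the share called higher to 2.6%, against 0.122%. Deviations from the group mean correlated at -0.301, 0.398 and 0.295 for same-numbered libraries, and between -0.502 and 0.367 for differently numbered ones. Within a group of 3 a gene's deviations add up to 0, so these correlations depend on each other. They cannot decide whether the numbers pair the libraries. Genes called higher numbered 0 with all libraries, and between 0 and 3 with a library left out. The median log2 fold change of -0.62 was -0.31 with no count filter and -0.36 by limma on log2(FPKM + 1), and ran between -0.74 and -0.40 with a library left out. Genes of other nitrate lists (unrelated proteins included) called higher numbered 0, against 1 without scaling factors, 7 by DESeq2, 1 with the replicate block and between 0 and 7 with a library left out. Those called lower numbered 0, against 2 with no count filter, 11 by DESeq2, 11 with the replicate block and between 0 and 25 with a library left out. RAV genes called numbered 0, and between 0 and 1 with a library left out. The cause of these shifts was not tested, apart from the fewer libraries or genes that an alternative itself uses.

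The estimate of each of the 4 called genes was negative under all 15 alternatives. Glyma11g35890.1 was called in 9 of them (adjusted p between 5.48e-08 and 0.178), Glyma08g39140.1 in 8 (1.96e-05 to 0.222), Glyma05g01380.1 in 7 (1.62e-06 to 0.193) and Glyma18g02510.1 in 5 (8.35e-05 to 0.244). The 29 untested genes were left out by the count filter, most of them at few counts; Glyma17g14830.1 and Glyma10g44320.1, with 109 to 151 counts in GmRAV1-ox replicates 1 and 2, were left out because the other 4 libraries held few. Counting intervals cover counting error only.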
